A study of Mus musculus with 6 samples.

Results

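Semaphorins, plexins, Slit and Robo proteins, netrins and Unc5 receptors were examined in epithelial cancer cells of mouse cutaneous squamous cell carcinoma (cSCC). Members were all genes whose platform symbol begins with Sema and a digit, Plxn, Slit1 to Slit3, Robo1 to Robo4, Ntn and a digit, or Unc5. This gave 46 genes with 85 probe sets, of 17097 genes with at least 1 probe set that names only them. 3 of the 46 match by name alone: Unc50 and Unc5cl, which are not netrin receptors, and the antisense transcript Plxna4os1. Slit3 was not measured by a probe set of 1 gene. Where a gene has several probe sets, the brightest over all 6 arrays stood for it.

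The arrays compared 3 full epithelial with 3 EpCAM+ plastic cancer cell samples, with 1 Affymetrix mouse expression array per tumor. Full epithelial cells were sorted from 3 independent well differentiated tumors (WD-SCCs). EpCAM+ plastic cells were sorted from 3 independent moderately or poorly differentiated tumors (MD/PD-SCCs) and hold cells with high and with low EpCAM. Both groups passed the same gate for α6-integrin and EpCAM without CD45, so neither holds the EpCAM-negative cells of the MD/PD-SCCs. In the study's model, WD-SCC lineages are grown from few engrafted cells in immunodeficient mice, and passage of these tumors into further mice gives MD/PD-SCCs. The sample labels give neither the host of each tumor nor the lineage it came from, so it is not known here whether tumors within a group share one. The comparison asks which genes differ between epithelial cancer cells that stay epithelial and those that can become mesenchymal.

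These proteins were first known for steering growing axons and also act in vessels, immune cells and epithelia. Semaphorins are secreted or membrane-bound ligands of plexins, which switch off Ras-family GTPases and reshape actin and adhesion, and the secreted class 3 semaphorins mostly need a neuropilin as co-receptor. Slits signal through Robo receptors, and netrins attract through Dcc or neogenin and repel through Unc5 receptors. In keratinocytes and carcinomas several of them affect migration, adhesion and survival.

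Values are RMA (robust multi-array average) values on the log2 scale, and a difference of 1 is a change of 2-fold. A background level of 5.73 was taken as the 95th percentile of the 23 nonspecific control probe sets of the array. 25 of the 46 genes had both group means at or below it, against 52.4% of all genes, and a change of such a gene can be understated. The 21 others were 11 of 20 semaphorins, 5 of 9 plexins, Slit2, Ntn5, Unc5a, Unc5b and Unc50. No Robo receptor reached the level. Signals of different probe sets have different efficiencies, so levels were compared between samples and not between genes. Epcam, Itga6, Krt5, Krt14, Cdh1 and Trp63, the epithelial markers, were above background in both groups and none passed the test. Array medians ran from 4.85 to 4.90. Upper quartiles were 6.52 to 6.56 in full epithelial and 6.63 to 6.67 in EpCAM+ plastic arrays, so they were higher in every plastic array. Correlations between arrays were 0.979 to 0.990 within groups and 0.954 to 0.976 between them.

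In EpCAM+ plastic cells 4 guidance genes rose, which were Plxna1, Unc5b, Sema6a and Robo1, and 1 fell, Sema4d. A gene rose or fell where limma's Benjamini-Hochberg adjusted p, taken over all 45141 probe sets, was under 0.05. Of all genes 5.3% rose and 1.91% fell, against 8.7% and 2.17% of the guidance genes. No guidance gene passed with a log2 fold change of at least 1 by its brightest probe set, while 1.99% of all genes rose and 0.831% fell by that rule. Counting any probe set of a gene, 6 guidance genes rose and 2 fell, against 6.43% and 2.43% of all genes, with Sema3c, Sema3b and Sema7a added. Of all genes 8.86% were called in either direction by this count. The median log2 fold change was -0.06 over the guidance genes and -0.02 over all genes. With 1 array left out the rises numbered 1 without full epithelial replicate 1 or 3, 2 without full epithelial replicate 2 or EpCAM+ plastic replicate 1 or 3, and 3 without EpCAM+ plastic replicate 2. The falls numbered 0 when EpCAM+ plastic replicate 1 was left out and 2 when replicate 2 of that group was. Over all genes the same sets gave 183 to 830 rises in place of 906 and 65 to 391 falls in place of 326, with the fewest of both without EpCAM+ plastic replicate 1 and the most without EpCAM+ plastic replicate 2. After a repeated quantile normalization of the arrays 3 rose and 2 fell, so 60% of the calls were rises in place of 80%. Over all genes that share went from 73.5% to 60.3%. The part of the higher upper quartiles of the plastic arrays in this change was not tested.

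**Figure D1:**
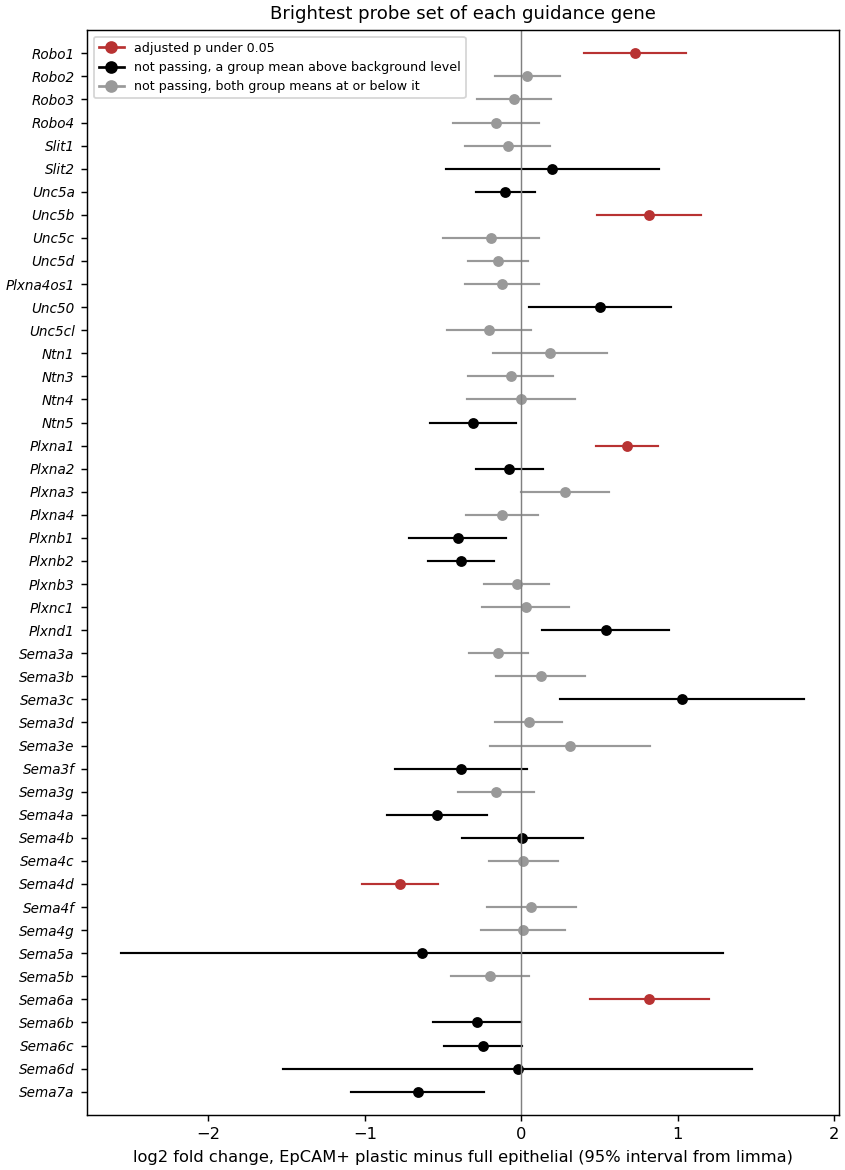
Log2 fold change of each of the 46 guidance genes by its brightest probe set, EpCAM+ plastic minus full epithelial (x axis), with 95% intervals from limma, 3 arrays per group. Red genes passed at an adjusted p under 0.05 (Plxna1, Unc5b, Sema6a and Robo1 to the right of 0 and Sema4d to the left), black genes did not pass but had a group mean above the background level of 5.73, and grey genes had both means at or below it.

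The groups of 8 guidance genes did not overlap with the higher values in EpCAM+ plastic cells, as for 15.4% of all genes, and 12 did not overlap with the lower values there, as for 13.7%. Together these are 43.5% of the members, against 29.1% of all genes. Over all probe sets of these genes the shares were closer, with 28 of 85, or 32.9%, against 28.2% of all probe sets that name 1 gene. At an unadjusted p under 0.05, 7 guidance genes were higher and 7 lower, against 14.9% and 9.01% of all genes. By family the median difference was -0.39 over 3 B plexins and 0.10 over 4 A plexins. It was 0.05 over 7 class 3 semaphorins, 0.01 over 6 of class 4, -0.42 over 2 of class 5 and -0.13 over 4 of class 6. Over 4 Unc5 receptors it was -0.13, over 4 netrins -0.04, over 4 Robo receptors -0.0049 and over 2 Slits 0.05.

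The promoters of Sema3c, Sema7a and Unc5b are shown because these are the members that passed by some probe set, had a group mean above the background level and have 1 RefSeq promoter entry that may be printed here. Each runs from 250 bases before to 50 after the start in GRCm38.p6, 5′ to 3′ on the gene's strand, and capitals mark the GC box GGGCGG or its reverse complement.
Sema3c: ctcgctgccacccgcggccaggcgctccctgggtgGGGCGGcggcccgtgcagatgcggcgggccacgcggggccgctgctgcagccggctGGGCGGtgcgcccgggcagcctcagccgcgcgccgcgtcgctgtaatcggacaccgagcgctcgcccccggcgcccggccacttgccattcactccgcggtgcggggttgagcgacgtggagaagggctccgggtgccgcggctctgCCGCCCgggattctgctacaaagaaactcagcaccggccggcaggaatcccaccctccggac
Sema7a: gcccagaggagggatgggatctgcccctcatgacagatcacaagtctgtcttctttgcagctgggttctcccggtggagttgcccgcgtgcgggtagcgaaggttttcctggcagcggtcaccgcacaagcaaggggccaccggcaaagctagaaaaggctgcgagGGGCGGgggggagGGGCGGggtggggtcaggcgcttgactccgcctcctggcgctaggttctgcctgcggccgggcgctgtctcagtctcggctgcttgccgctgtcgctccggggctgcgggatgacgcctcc
Unc5b: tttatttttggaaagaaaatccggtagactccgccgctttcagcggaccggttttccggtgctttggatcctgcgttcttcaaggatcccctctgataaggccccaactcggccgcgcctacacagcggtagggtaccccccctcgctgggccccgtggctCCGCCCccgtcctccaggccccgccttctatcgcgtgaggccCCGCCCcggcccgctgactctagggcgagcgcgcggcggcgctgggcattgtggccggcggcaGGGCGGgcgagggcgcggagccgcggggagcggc
The Sema3c window lies at chr5:17574566-17574865 on the plus strand, that of Sema7a at chr9:57939862-57940161 on the plus strand, and that of Unc5b at chr10:60831532-60831831 on the minus strand. Their GC contents were 75.7%, 67.3% and 69.7%. Sema3c held 3 GC boxes, Unc5b 3 and Sema7a 2. None of the 3 held the E-box CAGGTG, which Snail and Zeb factors bind, the AP-1 motif TGANTCA, the TEAD motif GGAATG or the TATA box TATAAA, all searched on both strands. Of 32851 promoters of this length, 35.7% held a GC box, 20.2% the E-box, 7.81% the AP-1 motif, 14.7% the TEAD motif and 13.6% the TATA box. Of 50 entries for 37 guidance genes, 33 held a GC box, 8 the E-box, 3 the AP-1 motif, 5 the TEAD motif and 1 the TATA box. A match to these letters is a description of the window and not a measured site.

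Among the secreted class 3 semaphorins, Sema3c showed the largest difference. Sema3c guides cardiac neural crest and acts through neuropilins with plexins such as Plxnd1. By its brightest probe set it measured 8.14, 9.02 and 7.69 in full epithelial cells and 9.02, 9.52 and 9.40 in EpCAM+ plastic cells. The full epithelial values spread widely, and the highest of them nearly reached the lowest plastic value. The difference of 1.03 ± 0.33 (SE, n = 3 per group) did not pass (limma, adjusted p = 0.130), and without full epithelial replicate 2 it was 1.39 and passed (adjusted p = 0.0342). The second probe set gave 7.91, 8.53 and 7.30 against 9.02, 9.81 and 9.51, with a clear gap between the groups. By this probe set Sema3c rose by 1.54 ± 0.33 (SE), or 2.90-fold (limma, adjusted p = 0.0470). That call was lost without full epithelial replicate 1 or 3 (adjusted p = 0.127 and 0.0935) or any of the 3 EpCAM+ plastic arrays (0.0851, 0.0865 and 0.131).

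Sema3b and Sema3f, both able to act against tumor growth in other carcinomas, gave no shared direction. The brightest Sema3b probe set was at background, with 5.59, 5.53 and 5.69 against 5.78, 5.52 and 5.89, and differed by 0.12 ± 0.12 (SE) (limma, adjusted p = 0.628). The middle of its 3 probe sets read 4.86, 5.17 and 5.03 against 5.85, 5.35 and 5.86, and its difference of 0.66 ± 0.17 (SE), without overlap, did not pass (limma, adjusted p = 0.0693). The dimmest read 4.49, 4.60 and 4.54 against 4.98, 4.99 and 5.02. These values were tight within each group and did not overlap, and the rise of 0.45 ± 0.08 (SE) passed (limma, adjusted p = 0.0288) but was lost in each of the 6 sets that left out 1 array (adjusted p from 0.0506 to 0.104). Sema3f, a ligand for Nrp2, was above background at 7.27, 7.31 and 6.89 against 6.51, 7.06 and 6.73. Its groups overlapped, and the difference of -0.39 had an interval from -0.81 to 0.03 (limma, adjusted p = 0.272). The other members of class 3, Sema3a, Sema3d, Sema3e and Sema3g, were at or below background in both groups, with differences from -0.16 to 0.31 by their brightest probe sets, and none passed. The 3 other Sema3e probe sets, all below background, differed by 1.00, 0.49 and 0.07. None of these passed, although the interval of the first ran from 0.14 to 1.87 (limma, adjusted p = 0.172).

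Of the membrane-bound class 4 semaphorins, Sema4d fell. Sema4d, also called CD100, is the ligand of Plxnb1 and Plxnb2 and, on lymphocytes, of Cd72. Its brightest probe set measured 10.43, 10.22 and 10.17 in full epithelial and 9.52, 9.55 and 9.43 in EpCAM+ plastic cells. All plastic values lay well under all full epithelial values. Sema4d fell by 0.78 ± 0.10 (SE), or 1.71-fold (limma, adjusted p = 0.0129), and of the 6 sets that left out 1 array the call was lost in that without EpCAM+ plastic replicate 1 (adjusted p = 0.0557). A second probe set read 7.90, 7.65 and 7.41 against 6.83, 6.70 and 6.66 and showed the same separation. It fell by 0.92 ± 0.14 (SE) (limma, adjusted p = 0.0175), and this call was lost without EpCAM+ plastic replicate 1 or 3 (adjusted p = 0.0609 and 0.0629).

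Sema4a, which signals to immune cells and endothelium, measured 7.21, 7.02 and 6.90 against 6.28, 6.66 and 6.57. Its groups did not overlap, and the difference of -0.54 ± 0.13 (SE) did not pass (limma, adjusted p = 0.0696) but passed after the repeated quantile normalization, at -0.66 (adjusted p = 0.0314). Sema4b, a membrane semaphorin with a PDZ-binding tail, gave 9.24, 9.67 and 9.22 against 9.36, 9.20 and 9.59. These ranges lay almost on top of each other, with a difference of 0.01 and an interval from -0.38 to 0.39, and the sign turned under repeated quantile normalization. Sema4c, Sema4f and Sema4g were below background in both groups and differed by 0.01 to 0.06.

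Leukocytes also make Sema4d, Sema4a and Sema7a, so the leukocyte markers were read in the same arrays. Of 10 markers 9 were measured, none passed and 7 were at or below background in both groups. Ptprc, which encodes the CD45 used to gate these cells out, read 2.90 to 3.00 in all 6 arrays. The summed marker level was 9.09 to 9.73 in full epithelial and 8.52 to 9.12 in EpCAM+ plastic cells, and most of it came from Cd68, at 9.32, 9.41 and 8.50 against 8.57, 8.25 and 7.67. Csf1r, the other marker with a group mean above background, read 5.60, 5.72 and 5.73 against 5.90, 5.73 and 5.79. Csf1r, Itgam and Adgre1 were higher in EpCAM+ plastic cells, by 0.12, 0.16 and 0.06. Ptprc, Tyrobp, Fcer1g, Cd3e and Lyz2 were lower there, with differences from -0.26 to -0.01. The part of Cd68-bearing cells in the lower semaphorin values was not tested, and in sorted bulk RNA fewer cells of a type and less RNA per cell cannot be told apart.

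Sema7a, the GPI-anchored semaphorin that binds Plxnc1 and β1 integrin, was lower in all EpCAM+ plastic arrays. Its brightest probe set gave 6.78, 6.75 and 7.02 against 6.08, 6.56 and 5.92. The groups did not overlap, EpCAM+ plastic replicate 2 lay closest to the full epithelial values, and the difference of -0.66 ± 0.18 (SE) did not pass (limma, adjusted p = 0.0854). Without that replicate it was -0.85 and passed (adjusted p = 0.0236). A second probe set read 7.06, 6.73 and 7.61 against 5.76, 6.16 and 5.16, again without overlap. By it Sema7a fell by 1.44 ± 0.31 (SE), or 2.71-fold (limma, adjusted p = 0.0454). The call of Sema7a by this probe set was lost without full epithelial replicate 1, 2 or 3 (adjusted p = 0.116, 0.0601 and 0.107). It was also lost without EpCAM+ plastic replicate 1 or 3 (0.131 and 0.104). Its receptor Plxnc1 was below background in both groups, with a difference of 0.03.

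**Figure D2:**
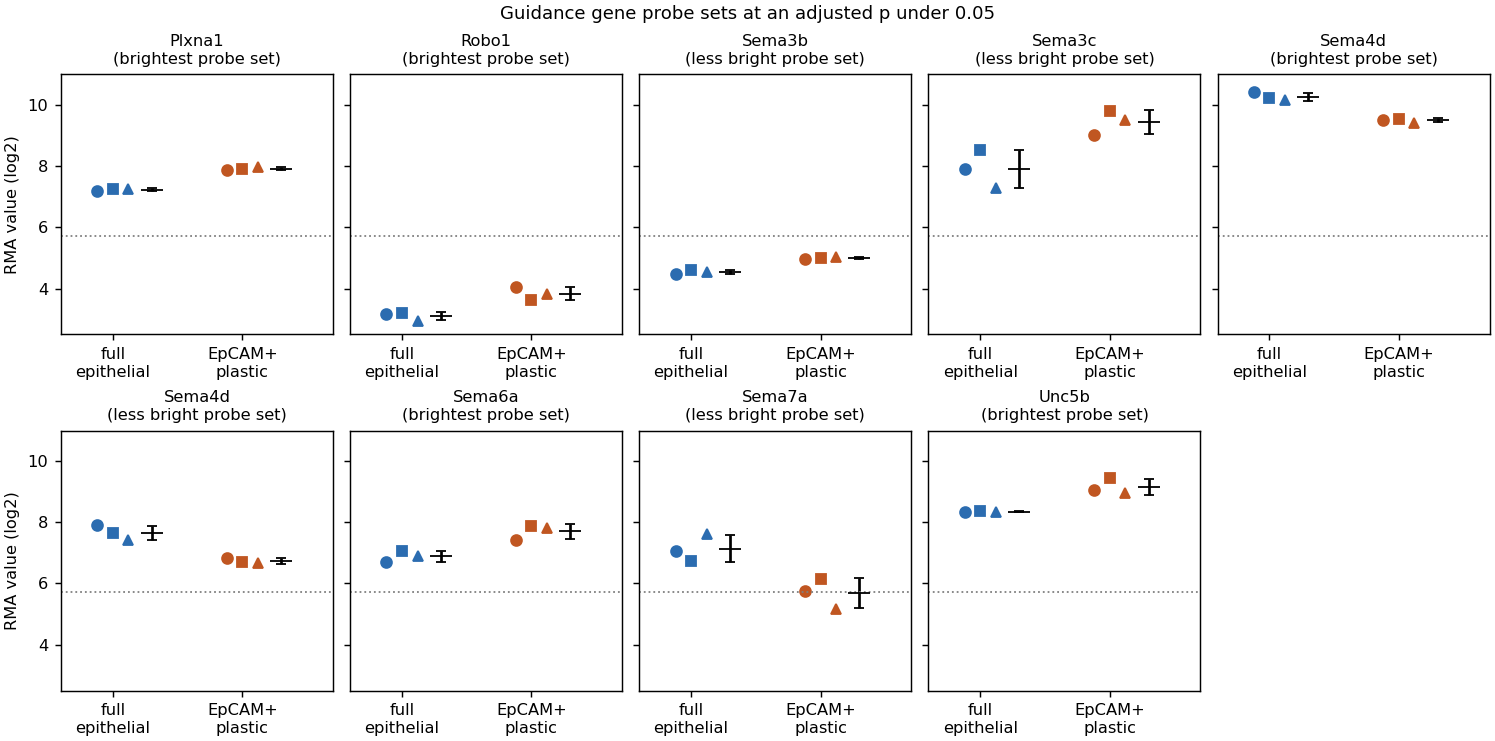
RMA values (y axis, log2) of the 9 guidance probe sets at an adjusted p under 0.05, in 3 full epithelial (blue) and 3 EpCAM+ plastic (orange) arrays. Circles, squares and triangles are replicates 1, 2 and 3, black bars are mean ± SD, and the dotted line is the background level of 5.73. Robo1 and Sema3b lie wholly under that line, and in every panel the groups do not overlap.

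Class 6 semaphorins are transmembrane ligands for A plexins. Sema6a, which binds Plxna2 and Plxna4, measured 6.70, 7.07 and 6.90 in full epithelial and 7.42, 7.89 and 7.82 in EpCAM+ plastic cells. Every plastic value lay above every full epithelial value. Sema6a rose by 0.82 ± 0.16 (SE), or 1.76-fold (limma, adjusted p = 0.0354). It did not pass after repeated quantile normalization (0.69, adjusted p = 0.0601), nor without full epithelial replicate 1, 2 or 3 (adjusted p = 0.0990, 0.0552 and 0.0921) or EpCAM+ plastic replicate 2 or 3 (0.0670 and 0.112). Its other probe sets, dimmer than the first, differed by 0.40 and 0.07 and did not pass.

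Sema6b, a ligand of Plxna4, read 6.13, 6.15 and 6.48 against 5.93, 6.02 and 5.96. Sema6c read 5.95, 5.79 and 5.72 against 5.59, 5.45 and 5.67. Both had no overlap between groups and lower values in EpCAM+ plastic cells, by 0.28 and 0.25, with adjusted p of 0.229 and 0.245 in limma. Sema6d, a ligand of Plxna1, gave 7.51, 6.52 and 5.36 against 6.17, 7.46 and 5.68. Its spread within groups was so wide that the interval of the difference ran from -1.52 to 1.48. The sign of the difference itself, -0.02, depended on which array was left out.

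Sema5a, a transmembrane semaphorin with thrombospondin repeats, varied in the same manner and is named because of that spread, after its values were seen. It measured 7.96, 8.19 and 6.40 in full epithelial and 7.36, 8.13 and 5.17 in EpCAM+ plastic cells. Replicate 3 was the lowest in each group for both Sema5a and Sema6d, although the labels do not say that replicate numbers link tumors of different groups. The difference of Sema5a was -0.63 with an interval from -2.56 to 1.29 (limma, adjusted p = 0.721). Among genes with a mean above background, the spread within groups of Sema5a stood at the 99.5 percentile and that of Sema6d at the 98.9. A second Sema5a probe set read 7.13, 6.72 and 5.26 against 6.55, 7.62 and 4.66, so replicate 3 was lowest there too. Sema5b was below background in both groups, with a difference of -0.20.

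Slit2, the secreted ligand of Robo receptors, was close to background, at 5.79, 6.09 and 5.95 against 5.82, 6.83 and 5.76. Only EpCAM+ plastic replicate 2 stood apart. The difference of 0.20 had an interval from -0.48 to 0.88 (limma, adjusted p = 0.756) and became -0.15 without that array. The summed level of 10 fibroblast markers was also highest in that array, at 9.89 against 8.25 to 9.18 in the 5 others. There Postn, a matrix gene of fibroblasts, read 7.62 against 4.48 to 5.03 elsewhere, and 8 of the 10 markers had both group means at or below background. Col1a1, Col3a1, Dcn and Pdgfrb were also highest in that array, at 8.05, 7.85, 6.84 and 5.80. Pdgfra and Fbln2 were lowest there, at 4.00 and 3.87, and Thy1, Col1a2 and Lum were neither. None of the 10 passed the test, and the part of fibroblast RNA in the Slit2 value was not tested. Slit1 was below background in both groups, with a difference of -0.09.

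**Figure D3:**
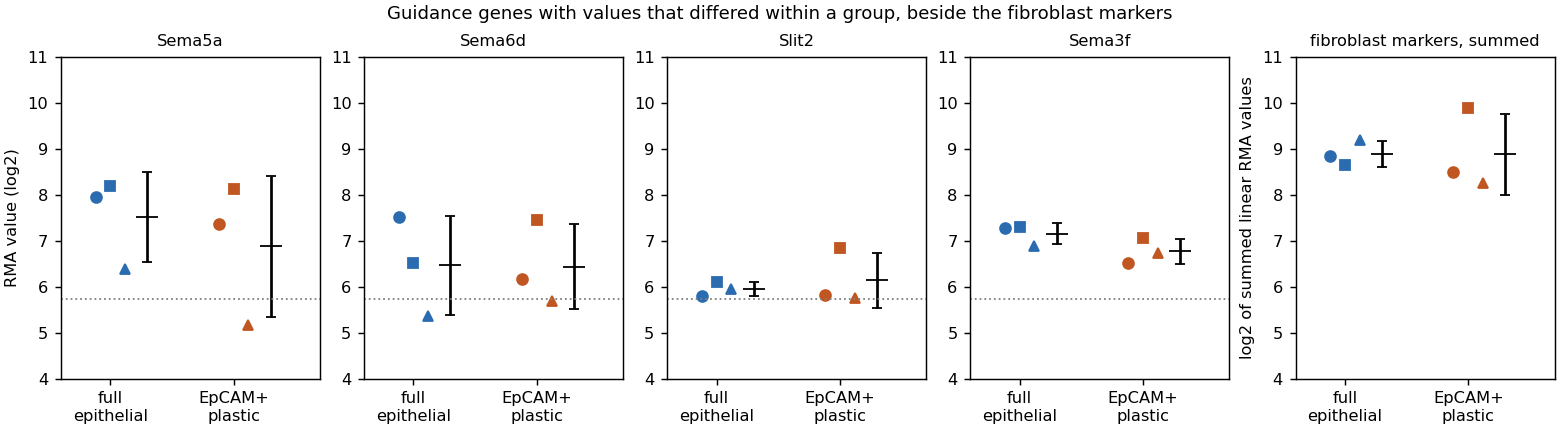
RMA values (y axis, log2) of Sema5a, Sema6d, Slit2 and Sema3f, and the log2 of the summed linear values of 10 fibroblast markers, in 3 full epithelial (blue) and 3 EpCAM+ plastic (orange) arrays. Circles, squares and triangles are replicates 1, 2 and 3, bars are mean ± SD, and the dotted line is the background level of 5.73. EpCAM+ plastic replicate 2 is the highest array for Slit2, at 6.83, and for the fibroblast markers, at 9.89, while the values of Sema5a and Sema6d spread widely in both groups.

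Ntn5 was the netrin above background. It read 6.48, 6.71 and 6.52 against 6.43, 6.15 and 6.21, without overlap, and the difference of -0.31 ± 0.12 (SE) did not pass (limma, adjusted p = 0.184). Ntn1, the best known netrin and the ligand of Dcc and Unc5 receptors, read 4.17, 4.20 and 4.19 against 4.22, 4.71 and 4.18. Both groups were thus at background, as were those of Ntn3 and Ntn4, and the differences of these 3 ran from -0.07 to 0.18.

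Among the plexin receptors Plxna1 rose. Plxna1 is the signaling receptor of class 3 semaphorins bound to neuropilins and of Sema6d. Its values were 7.18, 7.27 and 7.27 in full epithelial and 7.87, 7.90 and 7.97 in EpCAM+ plastic cells. Both groups were tight and lay well apart. Plxna1 rose by 0.67 ± 0.08 (SE), or 1.60-fold (limma, adjusted p = 0.0115), and was called in all 6 sets that left out 1 array, with adjusted p from 0.0232 to 0.0497. Its second probe set was also higher in all plastic arrays, at 6.61, 6.42 and 6.73 against 6.85, 6.81 and 7.09, but the difference of 0.33 did not pass (adjusted p = 0.184).

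The remaining A plexins showed no such difference. Plxna2 read 6.53, 6.48 and 6.41 against 6.49, 6.36 and 6.33, which overlap, and its difference of -0.08 had an interval from -0.29 to 0.14. Plxna3 and Plxna4 were below background, with differences of 0.28 and -0.12.

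Plxnb1 and Plxnb2, the receptors of Sema4d, were both lower in EpCAM+ plastic cells, and neither passed. Plxnb2, which binds several class 4 semaphorins, read 10.89, 10.76 and 10.90 against 10.52, 10.42 and 10.45. These tight groups did not overlap, and the difference of -0.39 ± 0.09 (SE) lay just outside the threshold (limma, adjusted p = 0.0532). Plxnb1 read 6.11, 6.06 and 6.33 against 5.56, 5.94 and 5.77, with EpCAM+ plastic replicate 2 nearest to the full epithelial values. It differed by -0.41 ± 0.13 (SE) (limma, adjusted p = 0.132). A second Plxnb1 probe set read 6.04, 5.25 and 6.24 against 5.36, 6.00 and 5.67. Its groups overlapped, and it differed by -0.17 (limma, adjusted p = 0.792). Plxnb3 was below background, with a difference of -0.03.

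Plxnd1, the receptor of Sema3e and best known in vessels, crossed the background level. It read 5.59, 5.35 and 5.69 in full epithelial and 6.08, 5.79 and 6.38 in EpCAM+ plastic cells, a narrow gap without overlap. The difference of 0.54 ± 0.17 (SE) did not pass (limma, adjusted p = 0.127). All 12 endothelial markers had both group means at or below background. Their summed level was 8.29 to 8.47 in full epithelial and 8.12 to 8.36 in EpCAM+ plastic cells, and 1 of them, Egfl7, fell. Pecam1, Eng, Cdh5 and Esam were higher in EpCAM+ plastic cells, by 0.46, 0.08, 0.05 and 0.01, and none passed. The rest were lower, with differences from -0.98 to -0.04. Pecam1 read 6.09 in EpCAM+ plastic replicate 1 and 4.71 to 5.07 in the other arrays. The part of endothelial RNA in the Plxnd1 values was not tested.

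Robo1 rose from a very low signal. Robo1 is a receptor of Slit2, and its signal was 3.16, 3.20 and 2.94 in full epithelial and 4.04, 3.61 and 3.83 in EpCAM+ plastic cells. Every value was far under the background level, although the groups did not overlap. The rise of 0.73 ± 0.14 (SE) passed (limma, adjusted p = 0.0323) and was lost without full epithelial replicate 1, 2 or 3 (adjusted p = 0.0830, 0.0628 and 0.0857) or EpCAM+ plastic replicate 1 or 3 (0.0963 and 0.0992). Robo2, Robo3 and the endothelial Robo4 were also below background, with differences from -0.16 to 0.04.

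Unc5b, a repulsive netrin receptor that can trigger cell death when no netrin is bound, rose. It measured 8.35, 8.36 and 8.32 in full epithelial and 9.07, 9.45 and 8.95 in EpCAM+ plastic cells. The full epithelial values were almost identical, and every plastic value lay above them. Unc5b rose by 0.81 ± 0.14 (SE), or 1.76-fold (limma, adjusted p = 0.0251). The call was lost without full epithelial replicate 1, 2 or 3 (adjusted p = 0.0766, 0.0639 and 0.0721) or EpCAM+ plastic replicate 1 (0.0776). A dimmer second probe set read 5.44, 5.75 and 6.37 against 6.26, 6.56 and 6.06, with overlap, and its difference of 0.44 did not pass (adjusted p = 0.375).

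Unc5a, a further netrin receptor, measured 6.33, 6.34 and 6.32 against 6.27, 6.19 and 6.22. These groups were narrow and did not overlap, yet the difference was only -0.10 (limma, adjusted p = 0.532). Unc5c and Unc5d were below background, with differences of -0.20 and -0.15. Unc50, a Golgi membrane protein that shares only the name, read 7.08, 6.85 and 6.70 against 7.27, 7.76 and 7.10. Its groups were separated by a small gap, and the difference of 0.50 did not pass (limma, adjusted p = 0.192). Unc5cl and Plxna4os1 were below background, with differences of -0.21 and -0.13.

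Nerve and Schwann cells express many guidance genes, so their markers were read as well. Of 8 such markers 5 were measured, and their summed level was 7.99 to 8.13 in full epithelial and 8.30 to 8.75 in EpCAM+ plastic cells. Ncam1, an adhesion molecule of neurons and other cells, rose by 1.41 (limma, adjusted p = 0.0488) and was the only marker of the list to pass. Ngfr, a neurotrophin receptor, read 6.23, 6.64 and 6.15 against 7.14, 6.96 and 6.94, without overlap, and its difference of 0.67 did not pass (adjusted p = 0.0501). The 3 others were not higher in the plastic group, with differences of -0.22 for Sox10, -0.03 for Mbp and -0.12 for S100b. Sox10, which defines the Schwann cell lineage, was at 5.98, 6.14 and 6.11 against 5.78, 5.95 and 5.85. The part of this marker list in the rises of Plxna1, Unc5b, Sema6a and Robo1 was not tested. The 20 nearest measured neighbors of each of the 8 members that passed by any probe set had median differences from -0.08 to 0.02, with at most 1 gene called per neighborhood.

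Of 80 further genes of these pathways, listed by role, 73 were measured. They were listed with earlier results of these data known, so their shares describe this list and test nothing. 9 rose and 3 fell, 16.4% in all against 7.21% of all genes, and the median difference was 0.03. Fewer of them were dim: 34.2% had both group means at or below background, against 52.4% of all genes. Over probe sets above that level alone, 12 of 47 partners were called, or 25.5%, against 17.2% of 7735 genes. These were 10 rises and 2 falls and not the same genes, since this filter removes Dapk1, Cd72 and Crmp1. After repeated quantile normalization 6 rose and 4 fell, so that 60% of the calls were rises in place of 75%. Among 26 co-receptors and other ligands 3 rose and 1 fell. Among 26 plexin effectors 4 rose and 1 fell, among 13 Robo effectors 2 rose, and among 8 netrin receptor effectors 1 fell.

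Nrp2, a neuropilin that carries Sema3f and Sema3c to plexins, rose with the smallest adjusted p of the list. It measured 7.92, 8.11 and 8.12 in full epithelial and 9.54, 9.72 and 9.58 in EpCAM+ plastic cells. The groups were tight and far apart, with a rise of 1.56 ± 0.10 (SE), or 2.95-fold (limma, adjusted p = 0.00326). Nrp1 was below background at 4.35, 4.64 and 4.37 against 4.50, 4.29 and 4.27. Its groups overlapped and it differed by -0.10 (adjusted p = 0.695). Met, a receptor kinase that can pair with B plexins, read 7.81, 7.88 and 8.22 against 9.36, 9.28 and 9.61. Met therefore rose in every plastic array over every full epithelial one, by 1.45 ± 0.15 (SE) (limma, adjusted p = 0.00778). L1cam, an adhesion molecule that partners with neuropilin-1, read 6.24, 6.37 and 6.24 against 5.45, 5.54 and 5.37 and fell, with a measured difference of -0.83 ± 0.09 (SE) (limma, adjusted p = 0.00884). Its plastic values were all below background, and against that level L1cam was at least 1.47-fold lower.

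The netrin receptors Neo1 and Dcc did not pass. Neo1 read 8.57, 7.74 and 8.08 against 8.11, 8.24 and 8.21, and Dcc read 6.69, 6.81 and 6.69 against 6.83, 6.64 and 6.68. Both pairs of groups overlapped, with differences of 0.06 and -0.01 whose signs changed with the array left out. Cd72, the lymphocyte receptor of Sema4d, stayed below background at 4.20, 4.19 and 4.28 against 5.09, 4.61 and 5.12. It rose by 0.72 ± 0.15 (SE) (limma, adjusted p = 0.0446) and was called in 1 of the 6 sets that left out 1 array, that without EpCAM+ plastic replicate 2.

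Plexin effectors that rose act on Ras-family GTPases and on the cytoskeleton. Rras2, a relative of the R-Ras that plexins inactivate, read 8.47, 8.42 and 8.03 against 9.60, 9.60 and 9.47. Limk1, the kinase that inactivates cofilin, read 6.54, 6.68 and 6.47 against 7.66, 7.46 and 7.90. Both had clear gaps between groups and rose by 1.25 ± 0.14 and 1.11 ± 0.13 (SE) (limma, adjusted p = 0.00865 and 0.0107). The other Limk1 probe sets, both dimmer, did not rise, with differences of -0.06 and -0.13 (adjusted p = 0.810 and 0.548). Dpysl2, a collapsin response mediator protein that binds tubulin, read 7.23, 7.31 and 8.30 against 9.26, 8.78 and 9.70. Full epithelial replicate 3 was nearest to the plastic values, and Dpysl2 rose by 1.63 ± 0.34 (SE) (limma, adjusted p = 0.0433). Rnd2 read 5.72, 5.80 and 5.70 against 7.06, 6.78 and 6.30, rising from the background level by 0.97 ± 0.19 (SE) (adjusted p = 0.0356). Crmp1, another collapsin response mediator, was below background at 5.20, 5.06 and 5.21 against 4.67, 4.77 and 4.68 and fell by 0.45 ± 0.09 (SE) (adjusted p = 0.0366).

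Abl1 and Abl2, kinases that act under Robo receptors, rose. Abl1 read 7.09, 7.37 and 7.39 against 8.10, 7.88 and 7.99, a rise of 0.71 ± 0.12 (SE) (limma, adjusted p = 0.0240), while its other probe sets were below background and differed by 0.34 and 0.04 without passing. Abl2 read 8.58, 8.63 and 8.56 against 10.34, 9.34 and 9.66, a rise of 1.19 ± 0.24 (SE) (adjusted p = 0.0391) in which the plastic arrays spread more than the full epithelial ones. Its second probe set rose too, by 1.23 (adjusted p = 0.0477), and a dimmer one differed by 0.48 (adjusted p = 0.118). Dapk1, a kinase that carries the death signal of Unc5b, fell. It read 6.71, 6.54 and 5.95 against 4.91, 4.20 and 4.13, a measured difference of -1.99 ± 0.27 (SE) (limma, adjusted p = 0.0137). All plastic values lay below background, so the level there has only a bound. Set against the background level of 5.73, Dapk1 was at least 1.59-fold lower in EpCAM+ plastic cells.

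Calls of Nrp2, Met, L1cam, Rras2, Limk1 and Dapk1 held in all 6 sets that left out 1 array. Abl1 was lost without full epithelial replicate 1 or EpCAM+ plastic replicate 1 or 3 (adjusted p from 0.0574 to 0.0899). Abl2 was lost without full epithelial replicate 1, 2 or 3 or EpCAM+ plastic replicate 3 (adjusted p up to 0.110). Dpysl2 was lost without full epithelial replicate 1 or 2 or EpCAM+ plastic replicate 1 or 3 (adjusted p up to 0.133). Rnd2 was called only without EpCAM+ plastic replicate 3 (adjusted p up to 0.102 in the other sets). Cd72 lost its call in 5 sets (adjusted p up to 0.144) and Crmp1 in all 6 (0.0509 to 0.126). After repeated quantile normalization Abl1, Dpysl2 and Rnd2 did not pass (adjusted p = 0.0601, 0.0582 and 0.0556).

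**Figure D4:**
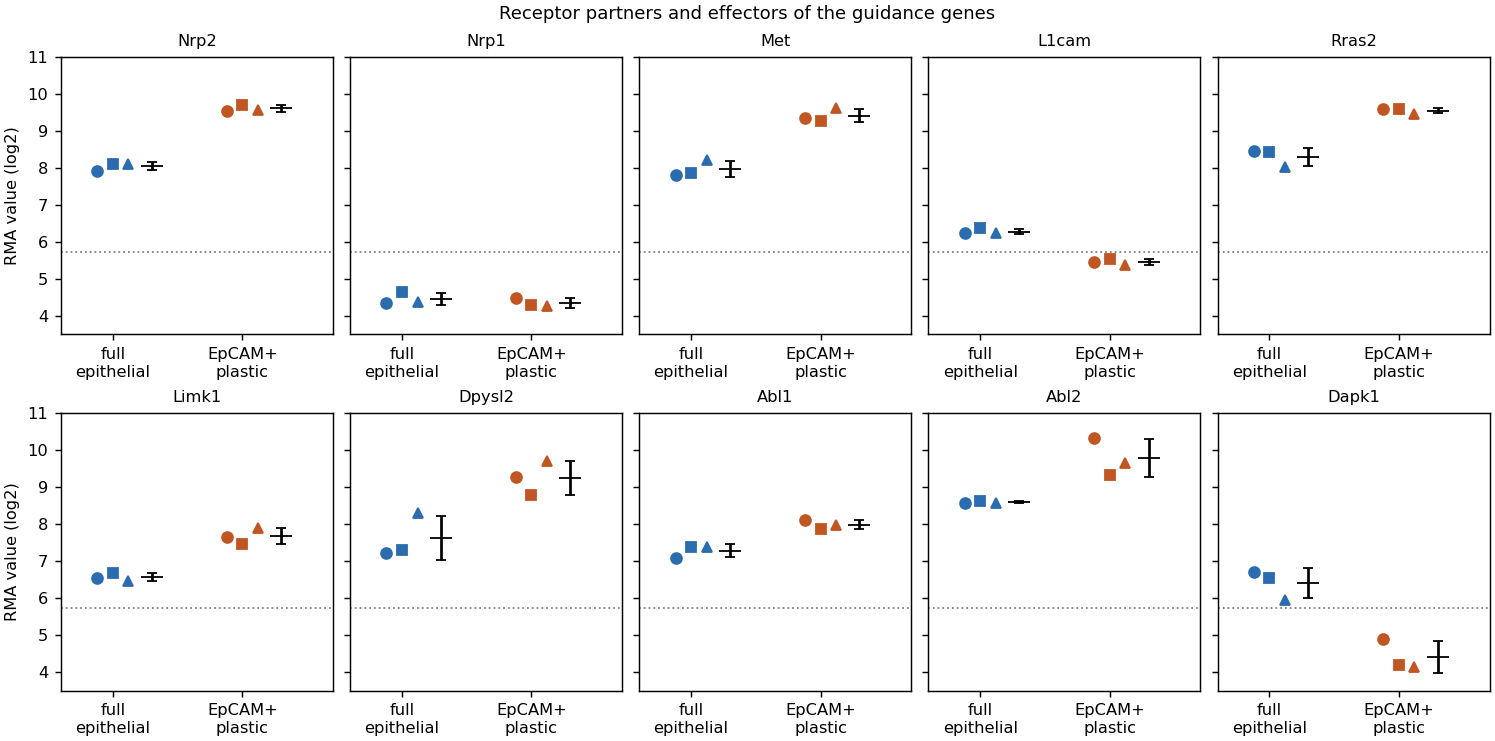
RMA values (y axis, log2) of 10 receptor partners and effectors, Nrp2, Nrp1, Met, L1cam, Rras2, Limk1, Dpysl2, Abl1, Abl2 and Dapk1, in 3 full epithelial (blue) and 3 EpCAM+ plastic (orange) arrays. Circles, squares and triangles are replicates 1, 2 and 3, bars are mean ± SD, and the dotted line is the background level of 5.73. Nrp2 separates by 1.56 while Nrp1 stays under the line in both groups, and Dapk1 crosses below the line in EpCAM+ plastic cells.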

How the data were processed

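RNA of 6 sorted samples, 3 full epithelial and 3 EpCAM+ plastic, was amplified from a small input with a whole transcriptome kit and hybridized to Affymetrix mouse expression arrays. The authors deposited RMA values on the log2 scale. The version of RMA was not given in the sources used here. The method removes background, equalizes probe distributions and summarizes each probe set, so fold changes are differences of deposited values. 2 deposited tables held the same values. Groups came from the sample labels. Each probe set took its gene from the platform's annotation: 28898 of 45141 name 1 gene, 551 several and 15692 are not listed. Chromosomes and promoters came from RefSeq GRCm38.p6.

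Differences were tested with limma 3.58.1 (R 4.3.3; lmFit and eBayes, no covariate, 4 residual and 2.81 prior degrees of freedom) and adjusted by Benjamini-Hochberg over all probe sets. The script was tested on simulated data. The labels call the samples biological replicates but do not say whether tumors share a lineage, so p-values measure the spread between these samples. Arrays have no read depth, and their number limits precision. Members, gene lists and the naming rule were chosen with earlier results of these data known.

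Values in every array are given for members with any probe set at an adjusted p under 0.05, for the 8 largest differences without overlap among the others above background, and for the 6 smallest above background in both groups. Of the pathway list, genes that passed and Nrp1, Nrp2, Neo1 and Dcc are named. Marker sums are the log2 of summed linear values. Alternatives were repeated quantile normalization, median centering, a filter at the background level, a trended robust prior, the replicate number as a block, any probe set of a gene, a minimum log2 fold change of 1, and each array left out. Replicate numbers were not treated as pairs.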

Additional observations from a re-analysis of the deposited data

How the results depend on the processing

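With 3 arrays per group, dim probe sets and amplified RNA limit what can be called. The 4 rises and 1 fall of guidance genes were unchanged in number by median centering and by the trended robust prior, and the background filter left 3 rises (without Robo1, which it removes) and 1 fall. These are 20% of the 20 guidance genes it keeps, against 17.2% of 7735 genes. The falls numbered 2 after repeated quantile normalization, 2 counting any probe set, and 0 to 2 with 1 array left out. The rises numbered 1 to 3 with 1 array left out. With a minimum log2 fold change of 1 there were 0 rises and 0 falls, and among pathway partners 6 rises and 1 fall. For the partners these are 8.22% and 1.37% of 73, against 1.99% and 0.831% of all genes. With the replicate number as a block, there were 0 rises and 0 falls of guidance genes, 4 rises and 2 falls of partners, and 154 and 68 over all genes. The labels do not say that the numbers mark pairs. Same-numbered arrays deviated from their group means with r of -0.18, -0.37 and -0.0057, and no array correlated best with its own number. Arrays with different numbers gave r from -0.29 to 0.38. Deviations within 3 arrays per group are too few to decide whether arrays of the 2 groups are linked. Partner rises ran from 4 to 8 and falls from 2 to 3 with 1 array left out, where all genes gave 183 to 830 rises and 65 to 391 falls. The median over guidance genes was -0.0903 with the background filter, which tests fewer genes, and ran from -0.0852 to -0.0490 with 1 array left out. Signs turned for differences near 0: Sema4b became -0.0046 after repeated quantile normalization and -0.0313 as the mean of its probe sets, Neo1 became -0.0081 after quantile normalization and Dcc 0.0409 as the mean of its probe sets. With 1 array left out the differences ran from -0.10 to 0.15 for Sema4b, -0.58 to 0.50 for Sema6d, -0.15 to 0.39 for Slit2, -0.13 to 0.28 for Neo1 and -0.0666 to 0.0283 for Dcc. Median centering ended the call of the second Sema3c probe set (1.54, adjusted p = 0.0510), and the trended robust prior that of Crmp1 (adjusted p = 0.0507). Repeated quantile normalization ended 5 calls among the named genes and their less bright probe sets, with Sema6a, Abl1, Dpysl2 and Rnd2 among them. Where no cause is named, it was not tested.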
